A study of Mus musculus with 11 samples.

Results

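The receptors of the fast and modulatory transmitters glutamate, GABA and glycine were followed at the RNA level in the cerebrum of aged Polg mutator mice. Rows of the gene count table were taken as members when their symbol named a pore-forming or G protein-coupled subunit of one of these receptors (Gria, Grik, Grid, Grin and Grm for glutamate, Gabr and Gabbr for GABA, Glra and Glrb for glycine), which gave 52 of 36666 genes. Auxiliary subunits, scaffolds and transporters were kept as separate lists. The mice were C57/Bl6 males aged 1 year. In 7 mutators both copies of Polg, the gene of the mitochondrial DNA polymerase, carried the proofreading-deficient D257A knock-in allele, and the 4 control littermates were 3 WT/WT mice (205, 239 and 246) and 1 WT/D257A mouse (237), so 1 control also carried a mutant copy. The allele is inherited and present in every tissue, and mutators of this age are smaller and progeroid, so that an effect inside the brain and an effect of the state of the body cannot be told apart. Poly(A)+ RNA of the cerebrum, taken after removal of the cerebellum, was sequenced without strand information.

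Most fast excitation in the cerebrum runs through AMPA, kainate and NMDA receptors, tetramers whose pore is built from Gria, Grik and Grin subunits, while the Grm receptors act more slowly through G proteins. GABA-A receptors are pentameric chloride channels in which alpha, beta and gamma subunits form the usual synaptic receptor, and the less common delta, epsilon, theta and rho subunits give channels with other locations and kinetics. Gabbr1 and Gabbr2 together form the metabotropic GABA-B receptor, and glycine receptors combine Glra subunits with Glrb and are best known from brainstem and spinal cord. Subunit make-up sets the conductance, kinetics and pharmacology of each receptor, and within the AMPA family it is further varied by a pair of mutually exclusive exons, flip and flop.

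Libraries held between 28249345 and 121182250 counts on genes. All values below are counts per 1000000 counts of the library (CPM) after TMM scaling, a correction for composition between libraries, and tests are edgeR quasi-likelihood tests over the 17983 genes that passed the filter on low counts, with Benjamini-Hochberg adjustment over all of them. One mutator, 248, carried 3.00 gene counts per aligned read in the authors' table of read totals, against 0.744 to 0.775 in the other mice. Marker genes of regions bordering the cerebrum varied between libraries. Summed over 10 markers of hypothalamus, the mutators lay at 64.0 to 117 CPM and the controls at 25.5 to 58.8 CPM, and all 10 markers were higher in mutators by their estimates. None passed the edgeR test (5 had an unadjusted p under 0.05), and Avp and Pmch passed with DESeq2. Here and below, DESeq2 called more genes over the whole table than edgeR did. In bulk tissue, fewer cells of a type and less RNA per cell cannot be told apart.

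Of the 52 subunits, 48 passed the filter and 4 of these were called at an adjusted p under 0.05. Grm3, Grin2c and Gabrd were lower in mutators and Gabrr2 was higher. Over all genes tested 1.24% were called, 0.801% as lower and 0.439% as higher, against 8.33%, 6.25% and 2.08% of the 48 subunits. The median log2 fold change over the 48 was 0.012, with 26 higher and 22 lower, and over all genes it was 0.0014, with 50.4% higher. Between mutators and controls, 5 subunits did not overlap at all in CPM, which held for 2.62% of all genes tested. They were the 4 called subunits and Grm2.

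**Figure D1:**
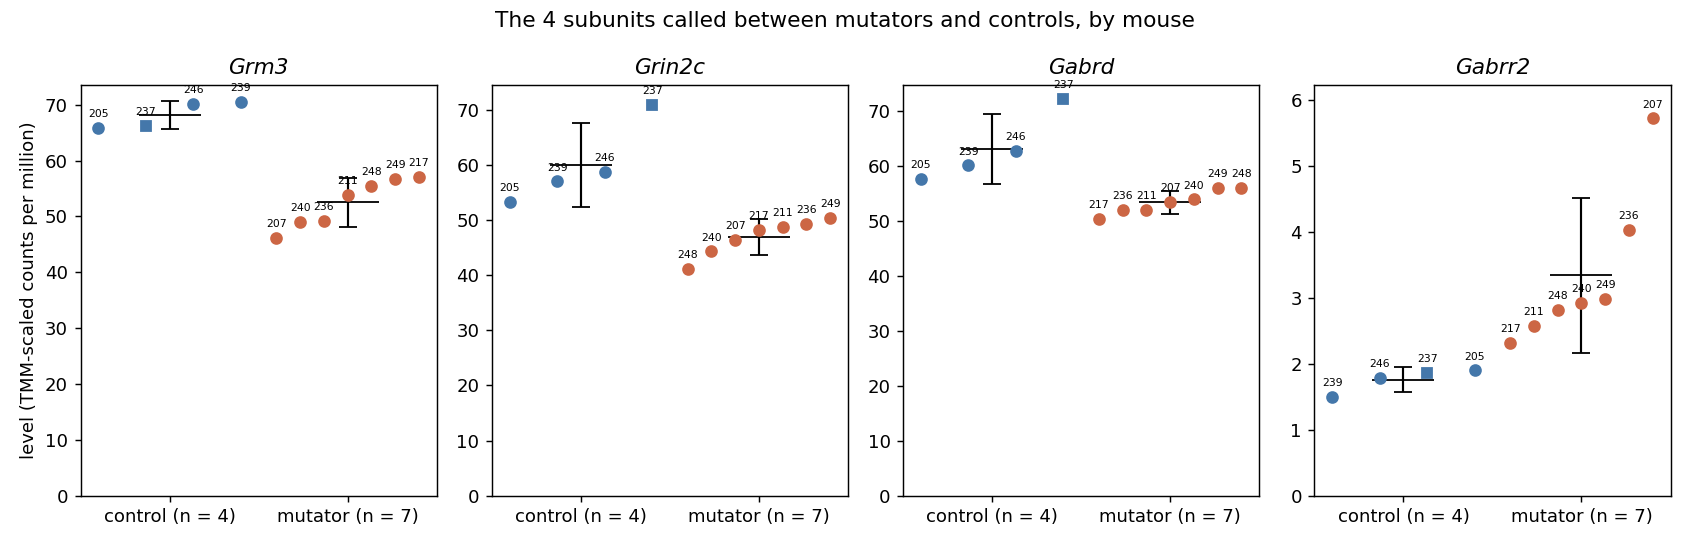
Level of the 4 called subunits in each mouse, in TMM-scaled CPM on axes that start at 0. Circles are mice ordered by level within a group and labelled by number, the square is the WT/D257A control 237, and the lines give the mean and SD. The groups do not overlap for any of the 4, and mouse 237 is the highest control for Grin2c and Gabrd.

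Grm3 encodes a group II metabotropic glutamate receptor, which couples to inhibitory G proteins and is found on neurons and on astrocytes. The gene lies on the minus strand of chromosome 5, at chr5:9485236-9725352 in NCBIM37 (mm9). Its level was 65.9 CPM in control 205, 70.5 in control 239, 70.1 in control 246 and 66.3 in control 237. In the mutators it ran from 46.2 CPM in mouse 207 over a median of 53.9 to 57.1 CPM in mouse 217. Every mutator lay below every control, and the WT/D257A mouse stood among the WT/WT mice. Grm3 fell by 23.0%, from 68.2 ± 2.44 CPM (SD, n = 4) to 52.5 ± 4.31 CPM in mutators (SD, n = 7), which is -0.38 on the log2 scale (SE 0.058, edgeR adjusted p 0.00268). It was the member that kept its call under each of the 20 alternative settings tried, with log2 fold changes between -0.35 and -0.40 when any 1 mouse was left out. The 20 count the same fit, that without control 237, both as WT/WT controls only and as a mouse left out. Without the WT/D257A control the log2 fold change was -0.39, with an edgeR adjusted p of 0.0102. The 8 astrocyte markers, which include the glutamate transporter Slc1a2, summed to 4938 to 5241 CPM in controls and 4652 to 5083 CPM in mutators, with 6 of 8 lower by their estimates. None passed the edgeR test (2 had an unadjusted p under 0.05) and 1, Slc1a2, passed with DESeq2. Lower estimates were not particular to astrocyte markers. They were held by 8 of 9 pan-neuronal, 8 of 10 oligodendrocyte and 6 of 7 microglia markers, against 5 of 10 interneuron and 1 of 9 endothelium and pericyte markers. The part of astrocyte RNA in the result was not tested.

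Grin2c encodes an NMDA receptor subunit that is abundant in cerebellar granule cells and, in the forebrain, is known from thalamus and astrocytes. The gene lies on the minus strand at chr11:115110483-115128557 (NCBIM37). Its level was 53.3 CPM in control 205, 57.0 in control 239, 58.7 in control 246 and 70.9 in control 237. The mutators ran from 41.0 CPM in mouse 248 over a median of 48.2 to 50.4 CPM in mouse 249. All mutators were below all controls, and the WT/D257A mouse was the control furthest from them. Grin2c fell by 21.8%, from 60.0 ± 7.63 to 46.9 ± 3.27 CPM (SD, n = 4 and 7), which is -0.35 on the log2 scale (SE 0.069), with an edgeR adjusted p of 0.0124. With the WT/D257A control left out the log2 fold change was -0.26 and the edgeR adjusted p 0.0905. The thalamus list, 8 markers, summed to 468 to 502 CPM in controls and 485 to 514 CPM in mutators, with Rora the most abundant. Of the 8, 5 had lower estimates, 3 had an unadjusted p under 0.05 and 1, Ramp3, was called as lower. DESeq2 called Ramp3 and Tnnt1. The part of these markers in the result was not tested. A micro RNA gene on the other strand overlaps Grin2c, and without strand information reads there cannot be assigned to a strand.

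Gabrd encodes the delta subunit, which replaces gamma in extrasynaptic GABA-A receptors that carry tonic inhibition, in the forebrain mainly in dentate granule cells, thalamus and striatum. It lies on the minus strand at chr4:154759089-154772221 (NCBIM37). Its level was 57.5 CPM in control 205, 60.1 in control 239, 62.7 in control 246 and 72.1 in control 237. The mutators ran from 50.4 CPM in mouse 217 over a median of 53.3 to 55.9 CPM in mouse 248. The gap between the groups was small, with the highest mutators at 55.9 and the lowest control at 57.5 CPM. Gabrd fell by 15.4%, from 63.1 ± 6.34 to 53.3 ± 2.09 CPM (SD, n = 4 and 7), which is -0.24 on the log2 scale (SE 0.056), with an edgeR adjusted p of 0.0375. Without the WT/D257A control the log2 fold change was -0.17 and the edgeR adjusted p 0.217. The call was also lost without mutator 211, 236 or 240 and without control 239 or 246, at edgeR adjusted p between 0.0617 and 0.0964. The 8 markers of hippocampal fields summed to 380 to 408 CPM in controls and 354 to 398 CPM in mutators, all 8 with lower estimates, 2 with an unadjusted p under 0.05 and 0 called by edgeR or by DESeq2, and their part in the result was not tested. The 10 markers of striatal projection neurons summed to 856 to 1035 CPM in controls and 737 to 900 CPM in mutators, with 7 of 10 lower by their estimates. In that list 3 had an unadjusted p under 0.05, edgeR called Adora2a, and DESeq2 called Adora2a and Penk.

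Gabrr2 encodes the rho 2 subunit, which forms GABA-A receptors insensitive to bicuculline and is best known from the retina. It lies on the plus strand at chr4:33149974-33182840 (NCBIM37). It was a rare transcript, with 49 to 430 counts a library. Its level was 1.90 CPM in control 205, 1.49 in control 239, 1.78 in control 246 and 1.87 in control 237. The mutators ran from 2.31 CPM in mouse 217 over a median of 2.92 to 5.72 CPM in mouse 207. The controls were tightly grouped and the mutators were spread, with 207 and 236 well above the rest. Gabrr2 rose from 1.76 ± 0.186 to 3.34 ± 1.18 CPM (SD, n = 4 and 7), which is 0.93 on the log2 scale (SE 0.22, 95% interval 0.48 to 1.38), with an edgeR adjusted p of 0.0437. Leaving out mouse 207, the highest, gave a log2 fold change of 0.74 and an edgeR adjusted p of 0.0211. The call was lost when any of the 4 controls or mutator 236, 240, 248 or 249 was left out, at edgeR adjusted p from 0.0506 to 0.169. The retina markers were near 0 in every library, the list of 6 summing to 0.785 to 1.22 CPM in controls and 0.883 to 1.66 CPM in mutators. Per length Gabrr2 stood at 0.835 ± 0.0882 RPKM in controls (CPM per kilobase of exon) and the related Gabrr1 at 0.110 ± 0.0711 RPKM (SD, n = 4). Gabrr1 had 5 to 33 counts a library and Gabrr3 0 to 12.

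A further 8 subunits had an unadjusted p under 0.05 without passing the adjustment, so that 12 of 48 subunits, 25% of those tested, were below that limit against 15.8% of all genes. Of the 12, 8 were lower and 4 higher in mutators by their estimates. Grm2, the other group II metabotropic receptor and the closest relative of Grm3, stood at 45.3 CPM in control 205, 44.0 in control 239, 47.2 in control 246 and 47.2 in control 237. Its mutators ran from 34.4 over a median of 40.5 to 43.2 CPM, all below the controls. Its log2 fold change was -0.23 (SE 0.064) with an edgeR adjusted p of 0.0821, and it passed with DESeq2 and without a filter, at adjusted p of 0.0434 and 0.0499. Both group II receptors thus had lower values in each mutator than in each control, while 1 of them passed the test. Grm4, a presynaptic group III receptor, stood at 38.3, 37.3, 37.5 and 40.8 CPM in controls 205, 239, 246 and 237, and at 32.3 to 37.5 CPM with a median of 35.0 in mutators. Its log2 fold change was -0.14 (SE 0.055, edgeR adjusted p 0.229).

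Grin1, the subunit required in every NMDA receptor, was at 349 CPM in control 205, 372 in control 239, 379 in control 246 and 425 in control 237, and at 319 to 373 CPM with a median of 345 in mutators. Its log2 fold change was -0.13 (SE 0.054, edgeR adjusted p 0.232) and came to -0.075 without control 237. Grik5, a high-affinity kainate subunit that needs a partner from Grik1 to Grik3 to form a channel, was at 174, 181 and 182 CPM in the WT/WT controls, 233 CPM in control 237, and 149 to 189 CPM with a median of 171 in mutators. Its log2 fold change was -0.19 (SE 0.079, edgeR adjusted p 0.237) and came to -0.088 without control 237. For both genes the WT/D257A mouse was the highest of all 11. Gabbr2, the GABA-B subunit that carries the receptor to the surface and couples it to G proteins, was at 337, 351, 343 and 356 CPM in controls 205, 239, 246 and 237, and at 294 to 353 CPM with a median of 324 in mutators, with a log2 fold change of -0.10 (SE 0.046, edgeR adjusted p 0.278). Its partner Gabbr1 had a log2 fold change of -0.076 with a 95% interval from -0.16 to 0.0064.

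Gabrg1, a gamma subunit found mainly outside the cortex, was at 40.1, 39.5, 31.7 and 32.7 CPM in controls 205, 239, 246 and 237, and at 36.5 to 45.3 CPM with a median of 40.9 in mutators. Its log2 fold change was 0.19 (SE 0.070, edgeR adjusted p 0.192). Gabrq and Gabre, the theta and epsilon subunits, mark GABA-A receptors of hypothalamus and of aminergic nuclei. Gabrq was at 10.4, 10.0, 3.09 and 5.07 CPM in controls 205, 239, 246 and 237, and at 10.0 to 17.0 CPM with a median of 14.7 in mutators, with a log2 fold change of 0.90 (SE 0.31, edgeR adjusted p 0.207). Gabre was at 1.92, 2.28, 0.581 and 0.414 CPM in the same controls, and at 1.69 to 3.57 CPM with a median of 2.69 in mutators, with a log2 fold change of 0.95 (SE 0.42, edgeR adjusted p 0.306). For all 3, and for the glycine receptor subunits Glra2 (11.6 and 12.7 CPM) and Glra3 (6.43 and 4.70 CPM), controls 246 and 237 were lower than the other 9 mice. The summed hypothalamus markers had the same low pair, at 25.5 CPM in control 246 and 39.4 in control 237 against 57.8 in control 205 and 58.8 in control 239. Among mutators, 217, 236 and 240 were the highest for Gabrq, for Gabre and for the summed hypothalamus markers, which stood there at 94.5, 95.8 and 117 CPM. The part of these markers in the values of these 5 subunits was not tested.

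**Figure D2:**
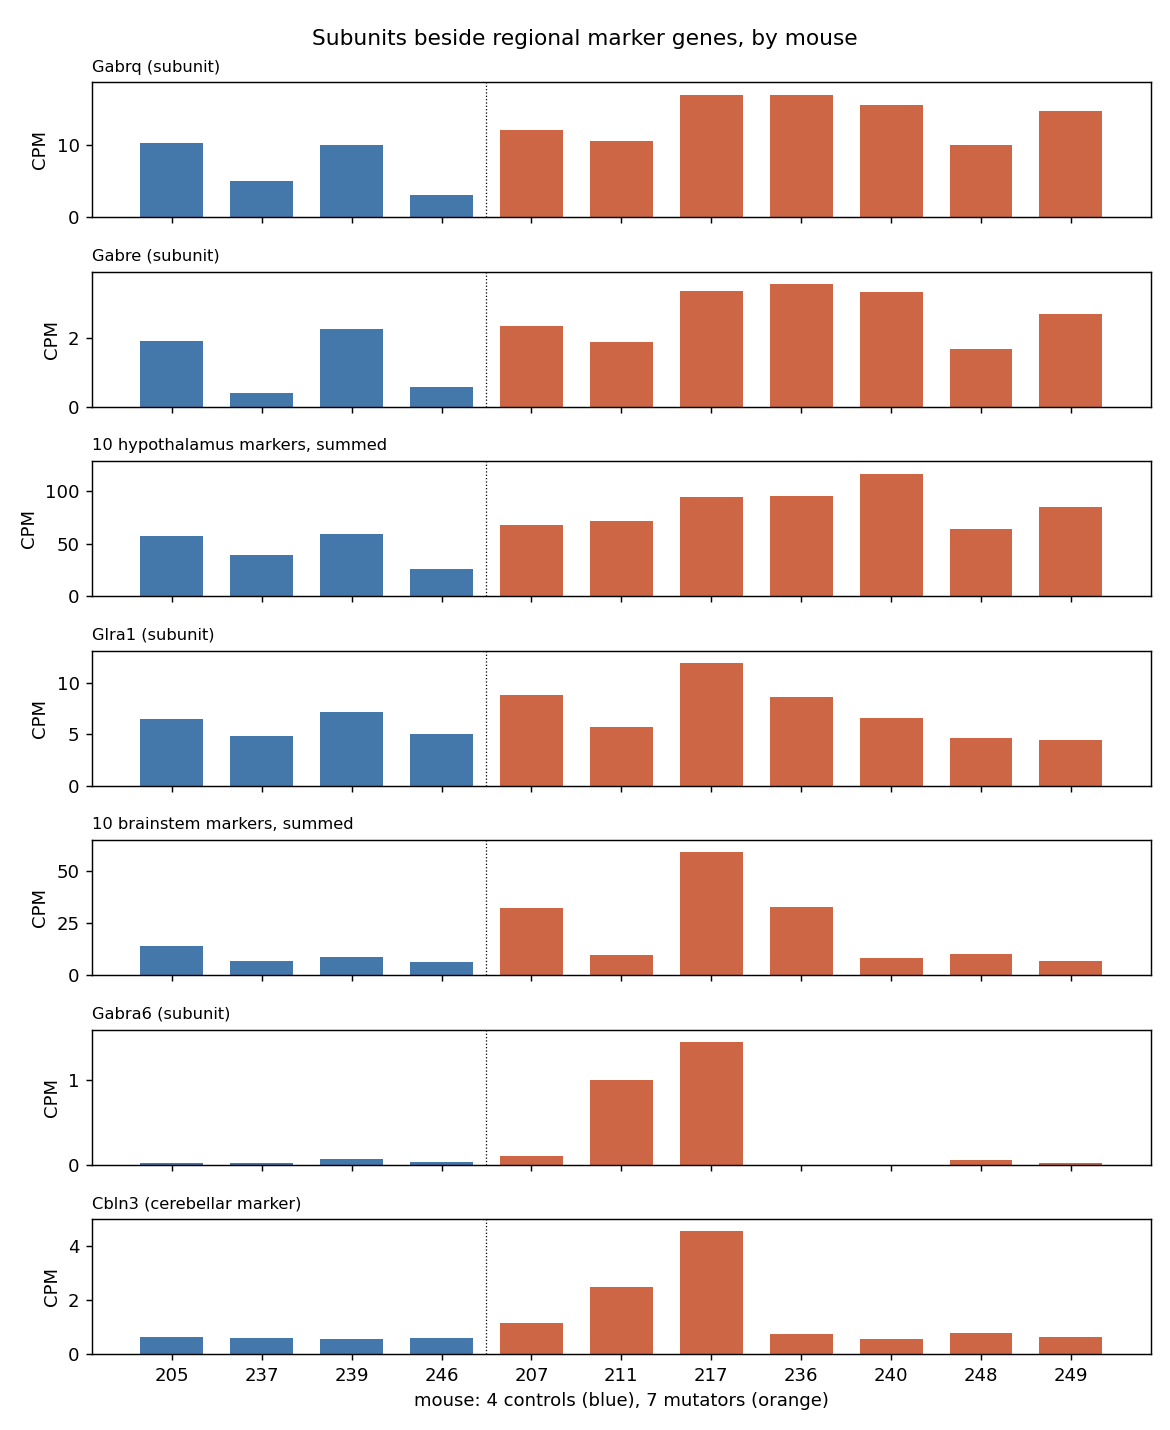
Level of 4 subunits beside regional markers in each mouse, in CPM, with controls in blue and mutators in orange. Controls 237 and 246 are low for Gabrq, Gabre and the hypothalamus markers, mouse 217 is the highest for Glra1 and the brainstem markers, and Gabra6 reaches 1.01 and 1.46 CPM in 211 and 217, where the cerebellar marker Cbln3 is also highest.

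Glra1 and Gabra6 were each highest in mice that were also high in markers of a neighbouring region. Glra1, the adult glycine receptor subunit of brainstem and spinal cord, was at 4.84 to 7.15 CPM in controls and 4.44 to 11.9 CPM in mutators, with a log2 fold change of 0.29 and a 95% interval from -0.33 to 0.91. Its 3 highest libraries were 217 at 11.9, 207 at 8.80 and 236 at 8.65 CPM. The brainstem list summed to 59.0, 32.2 and 32.8 CPM in those mice and to 6.25 to 13.9 CPM in the other 8, mostly through Slc6a5, the transporter of glycinergic neurons, and Tph2, the serotonin-synthesis enzyme of raphe neurons. Their part in the level of Glra1 was not tested. Gabra6, the cerebellar granule cell subunit, did not pass the filter. It had 42 counts in mutator 211 and 80 in mutator 217, which is 1.01 and 1.46 CPM, and 0 to 8 counts in the other 9 mice. Of the 10 cerebellum markers, 4 were higher in 211 and 217 than in each of the other 9 mice (Pcp2, Car8, Cbln3 and Zic1). Among them Cbln3, another gene of cerebellar granule cells, was at 2.48 CPM in 211 and 4.54 CPM in 217 against 0.545 to 1.17 CPM in the others. The sum of all 10 was not higher there, at 881 CPM in 211 and 870 CPM in 217 against 914 to 995 CPM in controls and 857 to 911 CPM in all mutators, and most of it was Itpr1, at 632 to 776 CPM over the mice. With both mice left out, a setting chosen after seeing the data, 3 of 48 subunits were called. The log2 change was then -0.41 for Grm3 (edgeR adjusted p 0.00141), -0.37 for Grin2c (0.0195) and 1.07 for Gabrr2 (0.00929), while Gabrd stood at -0.22 (0.0882). The other subunits below the filter were Gabrp at 0 to 1 count a library, Grm6 at 0 to 1 and Gabrr3 at 0 to 12.

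**Figure D3:**
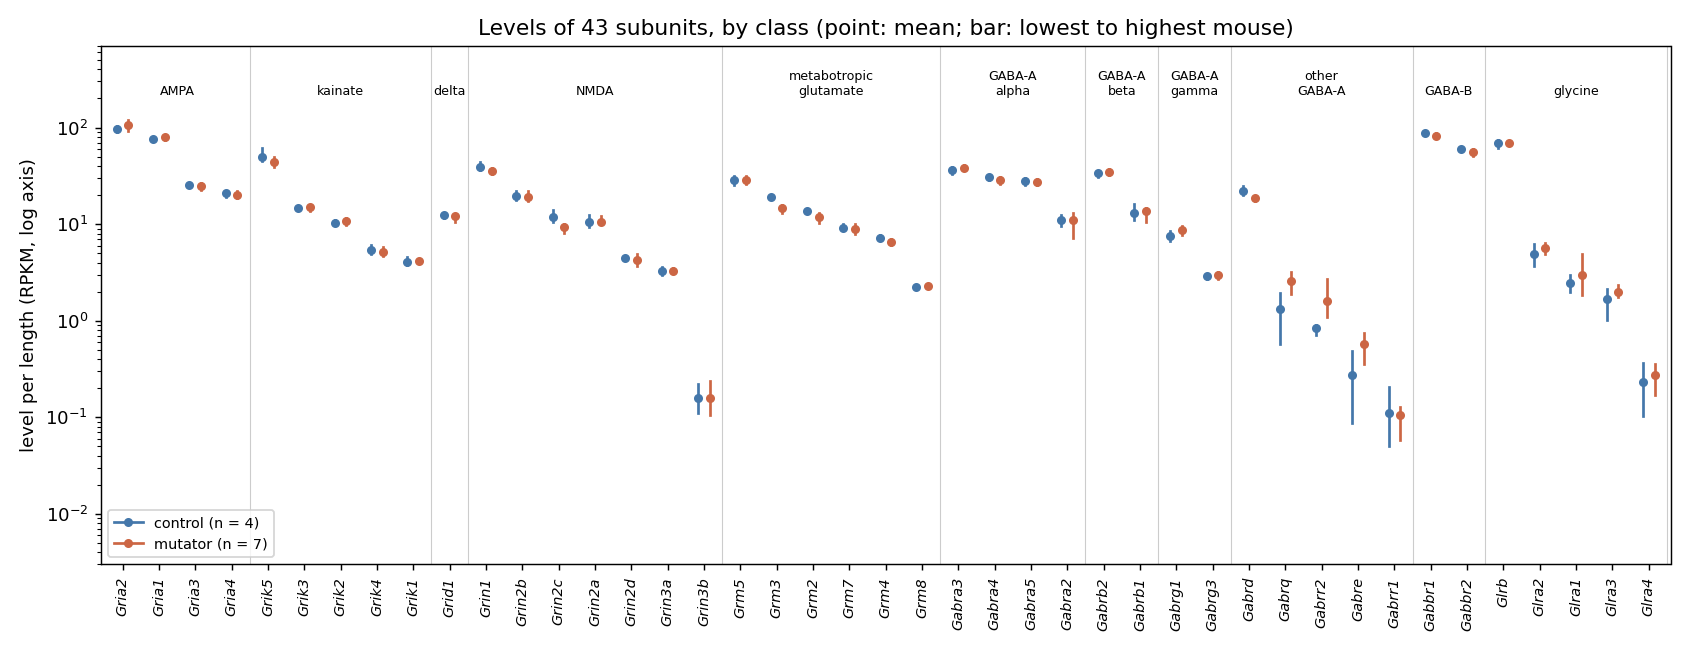
Level per length of 43 of the 48 subunits tested, in CPM per kilobase of exon (RPKM) on a log axis, grouped by class and ordered by the control mean. Points are the means of 4 controls and 7 mutators and bars run from the lowest to the highest mouse. Levels span from 0.110 RPKM for Gabrr1 to 97.6 RPKM for Gria2 in controls, and for most subunits the bars of both groups overlap.

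Levels were compared between genes only per length, as means of the 4 controls. The length was that of the annotated exons (RPKM) unless coding length is named. Gria2, the AMPA subunit that makes the channel impermeable to calcium, was the highest of all members at 97.6 ± 6.05 RPKM (SD, n = 4) and stood at 105 ± 10.0 RPKM in mutators (SD, n = 7). Gabbr1 followed at 87.1 ± 1.10 RPKM. The top rank depended on the length used, and by coding length Gria2 ranked 2 of all members, at 246 RPKM. Gria1 stood at 76.8 ± 1.66 RPKM, and Gria3 and Gria4 were lower at 25.1 ± 0.212 and 21.0 ± 1.25 RPKM. Glrb, the beta subunit that anchors glycine receptors, was at 69.7 ± 5.80 RPKM although its alpha partners lay between 0.232 RPKM for Glra4 and 4.86 RPKM for Glra2. Grik5 led the kainate subunits at 50.1 ± 7.15 RPKM, ahead of Grik3 at 14.6 ± 0.651 RPKM. By coding length Grik5 stood at 65.5 RPKM and Grik3 closer to it, at 47.7 RPKM. Grin1 led the NMDA subunits at 39.3 ± 3.30 RPKM, with Grin2b at 19.5 ± 2.14, Grin2c at 11.9 ± 1.52 and Grin2a at 10.6 ± 1.27 RPKM. Grid1, a delta-type glutamate receptor, stood at 12.4 ± 0.665 RPKM. Grm5, the group I receptor of forebrain, led the metabotropic receptors at 28.5 ± 2.45 RPKM, followed by Grm3 at 19.0 ± 0.682 RPKM. Among the other GABA-A subunits Gabrd stood at 21.9 ± 2.21 RPKM and Gabrq, the next, at 1.33 RPKM in controls.

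In CPM, the members leading these classes and not yet given by mouse were as follows. Gria2 was at 716, 700, 680 and 620 CPM in controls 205, 239, 246 and 237, and at 636 to 833 CPM with a median of 743 in mutators, with a log2 fold change of 0.11 and a 95% interval from -0.028 to 0.24, and it came to 0.066 without control 237. Gabbr1 was at 670, 682, 674 and 690 CPM in controls and at 625 to 680 CPM with a median of 637 in mutators. For Gria2 the WT/D257A mouse was the lowest of the 11, and the WT/WT controls lay within the range of the mutators. Glrb was at 236, 240, 249 and 205 CPM in controls and at 221 to 242 CPM with a median of 229 in mutators, with a 95% interval from -0.12 to 0.090. Control 237 was the lowest of all mice for Glrb too. Grm5 was at 237, 253, 222 and 207 CPM in controls and at 211 to 256 CPM with a median of 229 in mutators, with a 95% interval from -0.11 to 0.13. Grid1 was at 73.5, 79.8, 71.3 and 78.6 CPM in controls and at 64.4 to 78.5 CPM with a median of 76.0 in mutators, with a 95% interval from -0.15 to 0.079.

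**Figure D4:**
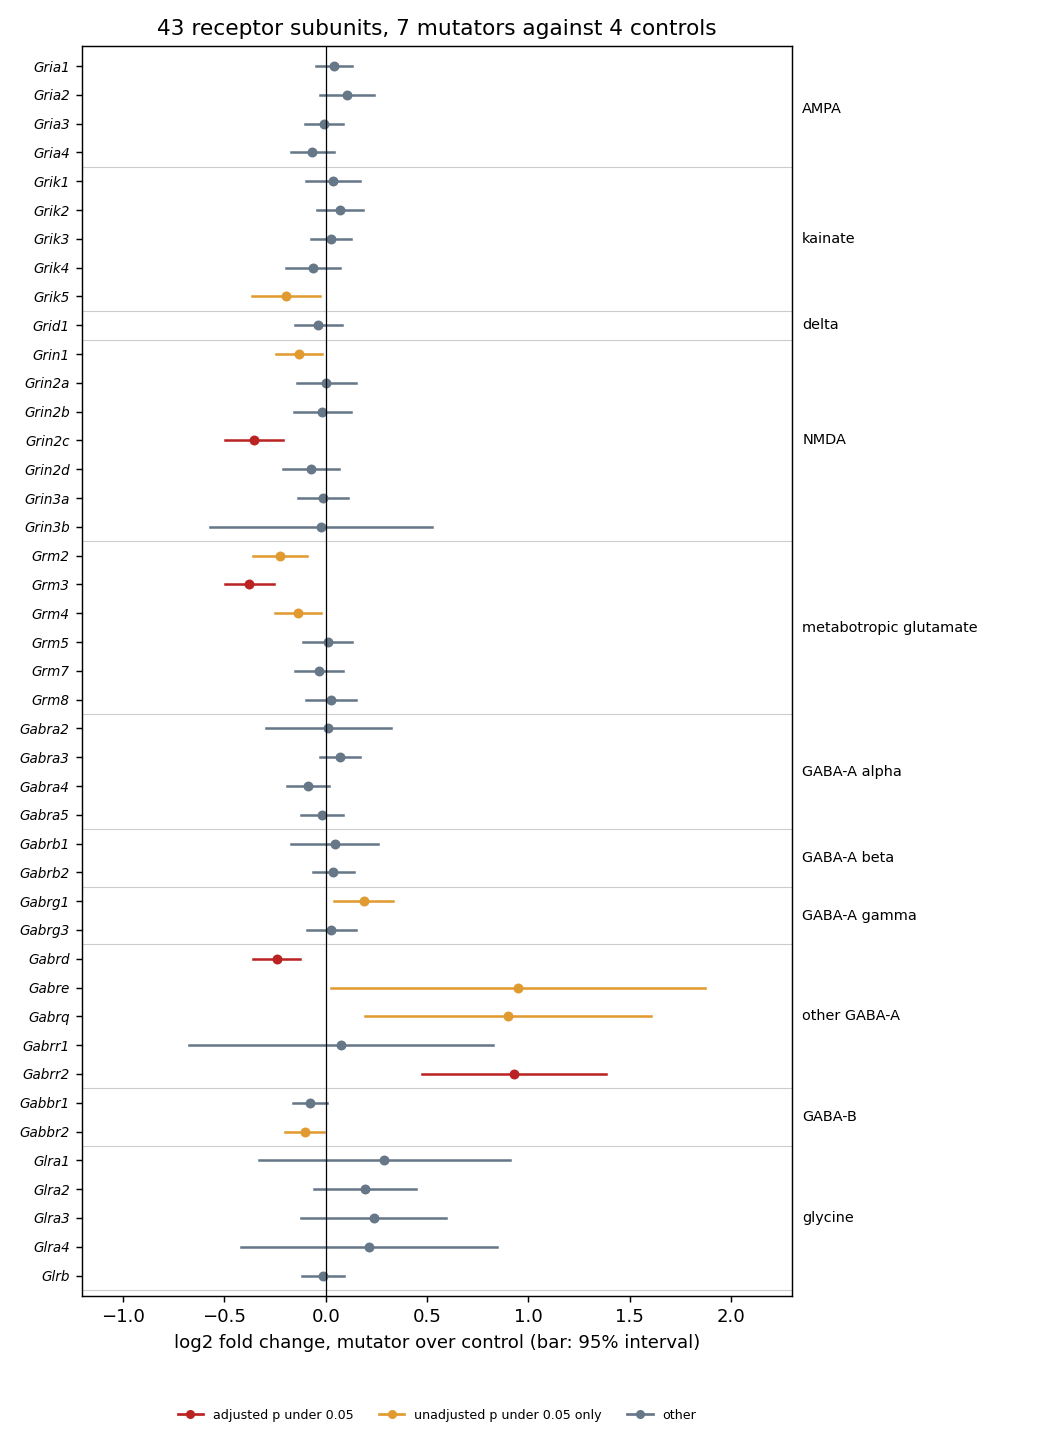
Log2 fold change of mutators over controls for 43 of the 48 subunits tested, with bars for the 95% interval from edgeR, grouped by class. Red marks the 4 with an adjusted p under 0.05 and orange the 8 with an unadjusted p under 0.05 alone. Most intervals lie close to 0, and the widest belong to the rare subunits Gabre, Gabrr1 and Gabrq.

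For 37 of the 48 subunits the 95% interval of the fold change stayed within 1.3-fold in either direction, and for 41 within 1.5-fold. The 7 that reached beyond 1.5-fold were Gabre, Gabrq, Gabrr1, Gabrr2, Glra1, Glra3 and Glra4, all of them below 3 RPKM in controls. None of the 4 AMPA, 5 kainate and 2 delta subunits was called, nor any GABA-A alpha, beta or gamma subunit. With 1.24% of all genes tested called, no call among so few subunits does not set these classes apart. In them Grik5 and Gabrg1 had an unadjusted p under 0.05. Of the 7 NMDA subunits 6 had lower estimates, with Grin2a the exception at a log2 fold change of 0.0032 and a 95% interval from -0.14 to 0.15. Over all genes tested 50.4% had higher estimates. The NMDA median was -0.022, and Grin2b at -0.017 and Grin3b at -0.022 were also close to 0. Grin2a, Grin2b and Grin3b changed sign under 5, 4 and 6 of the 20 alternative settings.

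Balances between subunits were described as log2 ratios of RPKM in each mouse, with no test. Grin2a to Grin2b, a ratio that rises during postnatal maturation, was -0.88 ± 0.063 in controls (SD, n = 4) and -0.86 ± 0.11 in mutators (SD, n = 7). Gria2 to Gria1 was 0.34 ± 0.10 in controls and 0.41 ± 0.084 in mutators. Gria2 to the sum of the other AMPA subunits was -0.33 ± 0.083 in controls and -0.24 ± 0.090 in mutators. In each of these 3 the difference between group means was no larger than about the spread among mice and the ranges overlapped. Glra2 to Glra1 was 0.98 ± 0.17 and 0.99 ± 0.47. In mutators it ran from 0.35 in mouse 217, the highest in Glra1, to 1.62 in mouse 249, the lowest in Glra1. The summed ionotropic glutamate subunits to the summed GABA-A subunits came to 0.24 ± 0.11 in controls and 0.20 ± 0.033 in mutators. In that ratio control 237 stood at 0.41, while the other 3 controls lay between 0.17 and 0.20 and the mutators between 0.14 and 0.23.

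Exon use was followed in the counts per exon bin, deposited for the 7 mutators and the 3 WT/WT controls. The flip and flop exons of an AMPA subunit are spliced in alternatively just before the last membrane segment and set how fast the channel desensitises. They are shown for Gria2, read from the minus strand of NCBIM37 with the flip exon at chr3:80494326-80494440 and the flop exon at chr3:80495242-80495356, with the 36 of 115 bases that differ between them in capitals, because the counts that tell them apart rest on these exons.
Gria2 flip: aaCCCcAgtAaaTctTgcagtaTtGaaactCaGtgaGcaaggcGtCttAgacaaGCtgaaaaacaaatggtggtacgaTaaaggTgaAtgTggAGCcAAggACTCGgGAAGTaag
Gria2 flop: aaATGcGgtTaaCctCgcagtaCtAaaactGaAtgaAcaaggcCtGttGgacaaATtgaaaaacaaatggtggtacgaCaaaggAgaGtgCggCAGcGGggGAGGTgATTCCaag
The pair was 68.7% identical, and the corresponding pairs were 72.2% identical in Gria3 and 73.0% in Gria4. Also shown is the N1 exon of Grin1, read from the minus strand at chr2:25166863-25166925, which lengthens the extracellular domain.
Grin1 N1: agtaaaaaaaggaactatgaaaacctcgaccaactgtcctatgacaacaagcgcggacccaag

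Among 701 tested exon bins of 45 subunits none was called by edgeR, against 49 of 206930 bins over all genes, which is 0.0237%. At an unadjusted p under 0.05 there were 9 bins of subunits by edgeR, 1.28% against 1.9% of all bins, and 13 by limma, 1.85% against 2.66% of all bins. The share of a bin in the counts of its gene did not overlap between the groups for 5 of the 701, 0.713%, against 1.4% of all bins. Flip made up 43.8 ± 1.81% of the Gria2 pair in WT/WT controls (SD, n = 3), counted per base, and 44.9 ± 1.31% in mutators (SD, n = 7). The control values were 43.3% in 205, 45.8% in 239 and 42.3% in 246, and the mutators ran from 42.8% over a median of 44.8% to 47.3%. Gria3 carried mostly flip, at 73.8 ± 1.74% in controls and 72.0 ± 2.28% in mutators. Gria4 carried mostly flop, with flip at 33.3 ± 1.24% in controls and 30.4 ± 3.64% in mutators, from 34 to 152 flip counts a library. The order Gria3, Gria2, Gria4 held in each of the 10 mice without overlap, and within each gene the groups overlapped.

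**Figure D5:**
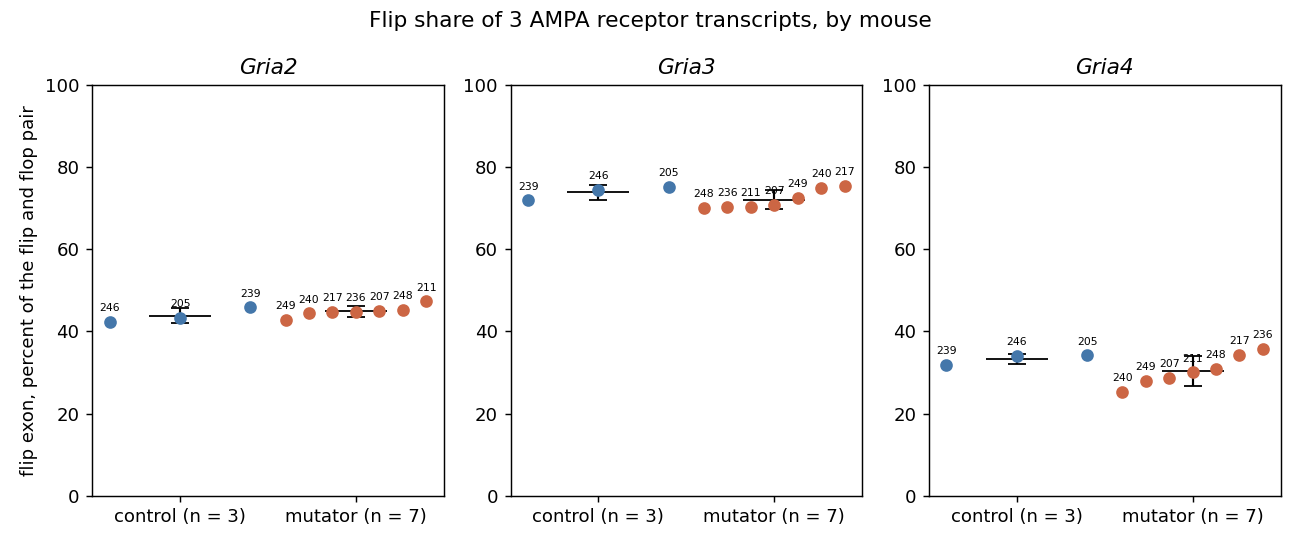
Share of the flip exon in the flip and flop pair of Gria2, Gria3 and Gria4 in each of 10 mice, in percent of counts per base, with lines for the mean and SD of 3 WT/WT controls and 7 mutators. Gria3 lies above 70%, Gria2 between 42.3% and 47.3% and Gria4 between 25.3% and 35.7%, and the groups overlap in each gene.

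For Grin1, the N1 exon took 1.16 ± 0.108% of the counts on all bins of the gene in controls and 1.24 ± 0.113% in mutators, and the C1 exon, which holds a retention signal, 2.70 ± 0.149% and 2.54 ± 0.214%. The C2 stretch, the part of the last exon between its acceptor sites at chr2:25147649-25148004, took 3.21%, 3.55% and 3.15% in controls 205, 239 and 246 and 2.66% to 3.10% with a median of 2.91% in mutators. This was 1 of the 5 bins without overlap, and its log2 change in use, -0.19, did not pass the test over all bins (edgeR adjusted p 1.00).

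The exon bins also showed which parts of some subunits were not counted. Bins of 46 members could be placed on the annotation, 777 in all. Of these, 21 lay wholly inside an exon of a gene on the opposite strand, and all 21 had 0 counts in each of the 10 mice, against 30 of the 740 bins with no such overlap. Most of them belonged to Grin1 and Grin3b. In Grin1, 9 of 42 bins, 1004 bases between chr2:25152200-25154055, were empty beneath an exon of E130003G02Rik. In Grin3b, a rare transcript with at most 15 counts in any bin of a library, 9 lay beneath ORF61. The libraries carried no strand information, and with such data a read that lies on exons of 2 genes cannot be assigned to either. The levels of both subunits per length are therefore lower bounds wherever the same reads were left out of the gene counts, which was not tested, and the missing bases were the same in both groups.

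The genes around the receptors were read from lists in the same fit, where 1.24% of all genes tested were called and 15.8% had an unadjusted p under 0.05. That limit was met by 7 of 16 auxiliary subunits, 9 of 26 excitatory scaffold and traffic genes and 3 of 18 inhibitory ones. It was also met by 8 of 20 transporters, 2 of 16 enzymes, 7 of 19 signalling genes and 4 of 15 editing and splicing factors. Of 16 auxiliary subunits of AMPA and kainate receptors 11 had lower estimates and 1 was called, Olfm1, a secreted protein bound to AMPA receptors, with a log2 change of -0.20 (edgeR adjusted p 0.0495). Of 26 excitatory scaffold and traffic genes 22 had lower estimates, with a median log2 fold change of -0.045. Dlg4, the scaffold PSD-95, fell with a log2 change of -0.21 (edgeR adjusted p 0.04999), and Shank1, a scaffold deeper in the same density, with -0.25 (0.0461). Cbln4, a secreted synaptic organiser, rose with 0.33 (0.0255). The abundant Nsf, which frees receptors from membrane complexes, had a log2 fold change of -0.0077 with a 95% interval from -0.093 to 0.077. Of 18 inhibitory scaffold and traffic genes 10 had higher estimates, the median was 0.020 and 0 were called by edgeR or DESeq2. The lowest edgeR adjusted p among them was that of Hap1 at 0.250, with a log2 fold change of 0.17.

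Of 20 transporters 13 had higher estimates. The amino acid carriers Slc38a2 and Slc38a3, which move glutamine into neurons and out of astrocytes, went opposite ways, with Slc38a2 up by a log2 change of 0.33 (edgeR adjusted p 0.00822) and Slc38a3 at -0.36 (0.00978). Slc1a2, the main astrocytic glutamate transporter, was at -0.13 (0.137). Of 16 enzymes of glutamate, GABA and D-serine 1 was called, Gldc, the glycine decarboxylase of astrocytes, at -0.29 (0.0297), while Glul, the glutamine synthetase, was at 0.044 (0.748). Of 19 signalling kinases, phosphatases and their partners 15 had lower estimates and 1 was called, Itpr1, the calcium release channel behind group I receptors, at -0.17 (0.0498), with Camk2a at -0.16 (0.196). Of 15 RNA editing and splicing factors 0 were called by edgeR and 4 had an unadjusted p under 0.05. The lowest edgeR adjusted p was 0.118, for Adarb1, the enzyme that edits Gria2, at -0.13, and this gene alone passed with DESeq2. Of the 8 genes called in these lists, 1, Slc38a2, kept its call without control 237 (log2 change 0.34, edgeR adjusted p 0.0379). The other 7 then had edgeR adjusted p between 0.0777 for Slc38a3 and 0.260 for Dlg4, whose log2 change was -0.15. Olfm1, Dlg4, Shank1 and Itpr1 were called under 7, 6, 8 and 4 of the 20 alternatives. The 10 markers of excitatory neurons of cortex and hippocampus summed to 1787 to 2212 CPM in controls and 1574 to 1934 CPM in mutators. Of the 10, 9 had lower estimates, 5 had an unadjusted p under 0.05 and Emx1 was called, with Nrgn as well by DESeq2. The 9 markers of endothelium and pericytes summed to 270 to 313 CPM in controls and 322 to 431 CPM in mutators. In that list 8 had higher estimates, 6 had an unadjusted p under 0.05, and Vwf and Abcc9 were called as higher. DESeq2 called Flt1 and Kdr as well. The part of these markers in the results on receptors and scaffolds was not tested.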

How the data were processed

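Poly(A)+ RNA of the cerebrum of 11 mice was sequenced as unstranded 100-base pairs. Per the labels the submitters used CASAVA 1.7.1, TopHat2 2.0.6 and Bowtie2 2.0.2.0 on mm9 and HTSeq 0.5.3p9. The authors deposited counts per gene for 11 mice and counts per exon bin for 10, not normalized, and a table of read totals of other units. Their DESeq and DEXSeq tables hold fold changes and p-values and were not used.

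Genes were filtered (filterByExpr), scaled by TMM and tested with edgeR 4.0.16 (glmQLFit, robust) in R 4.3.3, 7 mutators against 4 controls, with Benjamini-Hochberg adjustment over 17983 genes. Exon bins were tested with diffSpliceDGE, 7 mutators against 3 WT/WT controls. RPKM used the union of exons of the Ensembl annotation on NCBIM37, whose release may differ from the one counted. Bins number upward along the chromosome and were placed only where their number matched. DESeq2 1.42.0 and limma 3.58.1 (diffSplice) served as alternatives. The code was tested on simulated data with 200 changed genes or bins. For genes, edgeR recovered 196 with 11 false calls and DESeq2 197 with 31. For exon bins, edgeR recovered 171 with 47 false calls and limma 174 with 41. Members and lists were chosen with earlier results of these data known. Full values were given for members with an unadjusted or adjusted p under 0.05 and for the leading member of each class (5 subunits are not reported here by name), and listed genes were named if called, lowest in p or highest in CPM. Slc6a5, Cbln3, Pcp2, Car8 and Zic1 were named after their values were seen. Other alternatives were RLE, upper-quartile or library-size scaling, other filters, total count as a covariate, WT/WT controls only and leaving out mice. Each mouse is 1 library, so p-values reflect the spread between mice.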

Additional observations from a re-analysis of the deposited data

Results flagged for a closer look

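Among 104 sets of values (47 subunits and 5 ratios, in 4 controls and in 7 mutators), 6 held 1 mouse that stood apart from the rest of its group, with a gap to the next mouse that took most of the group's range. For independent, normally distributed values chance alone marks about 1 in 20 such sets. These sets share mice and subunits, and a single count among zeros is always marked, so that rate is only a rough guide here.

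In 4 of the 6 the mouse was 237, the control that carries 1 D257A copy. It was the lowest control for Gabra4, at 119 CPM against 128 to 129 CPM in the others. It was the highest control for Grik5, at 233 CPM against 174 to 182 CPM. Its log2 ratio of summed ionotropic glutamate to summed GABA-A subunits was 0.41 against 0.17 to 0.20. With 1 mouse of that genotype, genotype and mouse cannot be told apart. The remaining set with mouse 237 rests on a single count of Grm6, 0.0230 CPM against 0 in the other controls.

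Grm7, a presynaptic group III receptor, was at 58.5 CPM in control 239 against 52.6 to 52.9 CPM in the other controls. Gabrp had a single count in mutator 207, 0.0133 CPM, and 0 in the other mutators.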

How the results depend on the processing

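Grm3 was called under all 20 alternatives of the gene fit. Of the 48 subunits, 29 kept the direction of their estimate under all 20 and 19 changed it under at least 1. Leaving out 1 mouse at a time gave 1 to 4 called subunits, 50 to 412 called genes, 1 to 14 called genes of the pathway lists (8 in all mice), and 5 to 186 called exon bins (49 in all mice), with 0 bins of subunits called each time. The median log2 fold change of the 48 subunits lay between -0.012 and 0.044. The lowest number of genes, 50, came without the WT/D257A control 237, which is also the setting with 3 WT/WT controls only, and there 1 subunit and 1 pathway gene were called. Without control 205 there were 412 genes and 186 bins, and without control 239 there were 5 bins.

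DESeq2 called 615 genes, 5 subunits and 14 pathway genes, and the absence of a filter gave 346 genes and 5 subunits, against 223 genes and 4 subunits as reported. Both of these fits also took in genes below the filter on low counts, and both called more genes over the whole table, so their added calls are not particular to the subunits. Pathway genes came to 5 with RLE and 5 with upper-quartile scaling, to 4 with a mean count of at least 10, and to 4 without mutators 211 and 217. limma called 25 exon bins. With 3 WT/WT controls only the log2 fold change of Grm5 changed sign (-0.035) without being called. Leaving out 1 mouse moved Glrb between -0.069 and 0.022 and Grm5 between -0.035 and 0.060. The use of the Gria2 flip exon was 0.0085 with limma and lay between -0.032 and 0.036 leaving out 1 mouse, and that of the Gria4 flop exon between -0.0070 and 0.090.

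With coding length in place of exon length the leading subunit of a class stayed the same in 10 of 11 classes. Gria2, the highest member by exon length, then ranked 2 of all members. No paired analysis was possible because the labels give no number that ties a mutator to a control. For 7 subunits a change beyond 1.5-fold lies within the 95% interval.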
